A study of Mus musculus with 18 samples.

Results

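The 33 genes described here encode enzymes and carriers of hepatocytes that make urea, make glucose and break down amino acids. They were picked out by symbol, by a rule that uses no measured value but was drawn up with earlier results of these data known, and are 33 of the 54752 genes in the study's table. All 33 were found and passed the filter on low counts, which kept 21840 genes. They comprise 8 genes of the urea cycle, 3 of gluconeogenesis, 5 of tyrosine breakdown, 4 of tryptophan breakdown, 5 dehydratases and aminotransferases, 2 of histidine breakdown, and 6 of lysine, proline, glycine and glyoxylate breakdown.

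RNA was sequenced from the livers of 18 male C57BL/6 mice, 6 in each of 3 groups, out of 45 mice (15 per group) that were 6 weeks old at the start. The CCl4_PTH mice received CCl4 by intraperitoneal injection 2 times a week and PTH by gavage every day. The CCl4 mice received the same injections and a daily gavage of double distilled water. The control mice received olive oil injections and the water gavage, and all tissue was taken in week 22. CCl4 is a solvent that hepatocytes of the central zone of the liver lobule convert to a radical that injures them. PTH, also written PZH in the labels, is Pien Tze Huang, a traditional Chinese medicine. The labels call the CCl4 mice a model of liver cancer. They do not say whether tumour was sampled, nor the interval since an injection or a meal.

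The urea cycle turns ammonia, released when amino acids are broken down, into urea, and takes place mainly in hepatocytes near the portal vein. The carbon skeletons of the same amino acids feed gluconeogenesis, which supplies glucose to the blood during fasting. Glucagon, glucocorticoids and insulin set the transcription of many of these enzymes, and much of the whole-body capacity for breaking down tyrosine, tryptophan, lysine and glyoxylate lies in the liver.

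Total counts were 76883416 to 118877267 in CCl4_PTH libraries, 67229863 to 83820995 in CCl4 libraries and 77192852 to 86586786 in control libraries, and ribosomal RNA loci took 30.6% to 55.8% of them. All 14 hepatocyte markers found in the table were detected in every group, and their summed level was 45900 to 86600 CPM (counts per 1000000 of a library size scaled with TMM factors) in CCl4_PTH, 29600 to 67200 in CCl4 and 59500 to 73800 in control libraries. In CCl4 against control livers, 15 of 17 macrophage markers, 12 of 15 stellate cell and myofibroblast markers, 10 of 11 cholangiocyte markers, 11 of 13 lymphocyte markers and 10 of 10 tested neutrophil markers were called higher. The share over all genes tested was 26.3%. Spp1 is in both the macrophage and the cholangiocyte list. In bulk tissue, fewer hepatocytes and less of an RNA per hepatocyte cannot be told apart. Some libraries stood apart from their group. The library CCl4_PTH 1 had 33700 CPM summed over 13 acute phase genes, against 2980 to 3990 in the other 5 libraries of its group, and 688 CPM summed over 13 lipogenic genes, against 3740 to 8220. CCl4 4 had the lowest CPM of its group in 25 of the 33 genes, together with the lowest hepatocyte marker sum (29600 CPM) and the highest macrophage marker sum (1740 CPM) of that group. The libraries control 1 and control 8 had 8630 and 16500 CPM of the lipogenic genes that feeding induces, against 1520 to 2470 in the other 4 controls, and 2000 and 2800 CPM of 13 genes that fasting induces, against 6630 to 7170.

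Per kilobase of annotated exon, Cps1 was the most abundant of the 33 genes in CCl4 livers, at a mean of 407 CPM per kb, followed by Ass1 (343), Pck1 (304), Arg1 (192), Fbp1 (158) and Hpd (152). Cps1 also led in control livers, at 415 ± 119 CPM per kb (SD, n = 6). Pck1 (409 ± 72.1), Hpd (406 ± 44.9) and Ass1 (388 ± 100) lay within their SDs of it. Fbp1 (217 ± 17.5), Arg1 (173 ± 17.6) and Tdo2 (164 ± 25.9) followed, of which Arg1 and Tdo2 did not differ beyond their SDs. At the low end stood Nags (11.6 ± 0.566), Amt (10.9 ± 1.72), Prodh (10.7 ± 2.62) and Sdsl (2.12 ± 0.375).

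In CCl4 against control livers, 16 of the 33 genes fell and 1 rose, Gpt2, by edgeR's quasi-likelihood test (Benjamini-Hochberg adjusted p under 0.05 over all 21840 genes). Those that fell were Otc and Slc25a13 of the urea cycle, G6pc, all of the tyrosine pathway after its first step (Hpd, Hgd, Gstz1, Fah), Tdo2, Kmo and Haao of the kynurenine pathway, Gpt, and Aass, Prodh, Aldh4a1, Agxt and Amt. Of all genes tested, 21.2% were called lower and 26.3% higher, against 48.5% and 3.03% of the 33. The median log2 fold change was -0.45 over the 33 genes and 0.05 over all genes, and 25 of the 33 were below 0. For 11 of the 33 genes every CCl4 library lay below every control library, which held for 11.3% of all genes; they were Otc, Slc25a13, Hpd, Hgd, Fah, Gstz1, Kmo, Haao, Prodh, Aldh4a1 and Agxt. Scaling by library sizes only moved the median of all genes to 0.63 and the share of higher calls among all calls to 91.4% (55.3% with TMM), with 8 of the 33 called higher (Asl, Arg1, Slc25a15, Sds, Sdsl, Got1, Gpt2 and Gldc) and 8 lower; the median of the 33 then differed from that of all genes by -0.54, against -0.50 with TMM. Slc25a13, Hpd, Gstz1, Haao, Prodh, Aldh4a1, Agxt and Amt were called lower under all 30 alternative settings. Otc lost its call in 5 of them, G6pc in 7, Hgd, Fah, Tdo2 and Gpt in 2 each, and Kmo in 1. The highest adjusted p was 0.191 for Hgd, 0.0859 for Fah, 0.292 for Tdo2 and 0.308 for Gpt. Aass is described below.

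In CCl4_PTH against CCl4 livers, 11 of the 33 genes rose and 0 fell by edgeR, with 0 lower by DESeq2 and 1 by voom. They were Hpd, Hgd, Fah and Gstz1 of tyrosine breakdown, Tdo2, Kmo and Haao of tryptophan breakdown, and Aass, Prodh, Aldh4a1 and Amt. None of the 8 urea cycle genes and none of the 3 gluconeogenic genes was called by edgeR; over all 33 genes 17 had an unadjusted p under 0.05. Of all genes tested, 7.1% were called higher and 4.95% lower, against 33.3% and 0% of the 33. The median log2 fold change was 0.54 over the 33 genes and -0.03 over all genes, and 30 of the 33 were above 0. In none of the 33 did all 6 CCl4_PTH libraries lie above all 6 CCl4 libraries, which held for 2.2% of all genes. The CCl4 libraries enter this comparison and the one with control, so the values of both are given side by side below, and neither was tested for agreement with the other. The count of 11 rests on single libraries: it was 17 without CCl4 1, 7 without CCl4_PTH 2 or CCl4_PTH 3, and 5 without CCl4 2, CCl4 4, CCl4 7, CCl4_PTH 6 or CCl4_PTH 7, and it was 6 with library sizes only, 4 with only the 2 groups fitted, 2 when scaled to hepatocyte markers, 14 with DESeq2 and 17 with voom. Fah, Gstz1, Kmo, Haao and Prodh were called whichever single library was left out.

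In CCl4_PTH against control livers, 2 of the 33 genes rose, Sds and Got1, and 2 fell, Slc25a13 and G6pc, against 17.4% of all genes called higher and 10.3% lower. The median log2 fold change was -0.04 over the 33 genes and 0.04 over all genes. With library sizes only, which moved the median of all genes to 0.51, 13 of the 33 were called higher (Cps1, Ass1, Asl, Arg1, Slc25a15, Tat, Kynu, Sds, Got1, Gpt2, Uroc1, Aass and Gldc) and 0 lower.

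**Figure D1:**
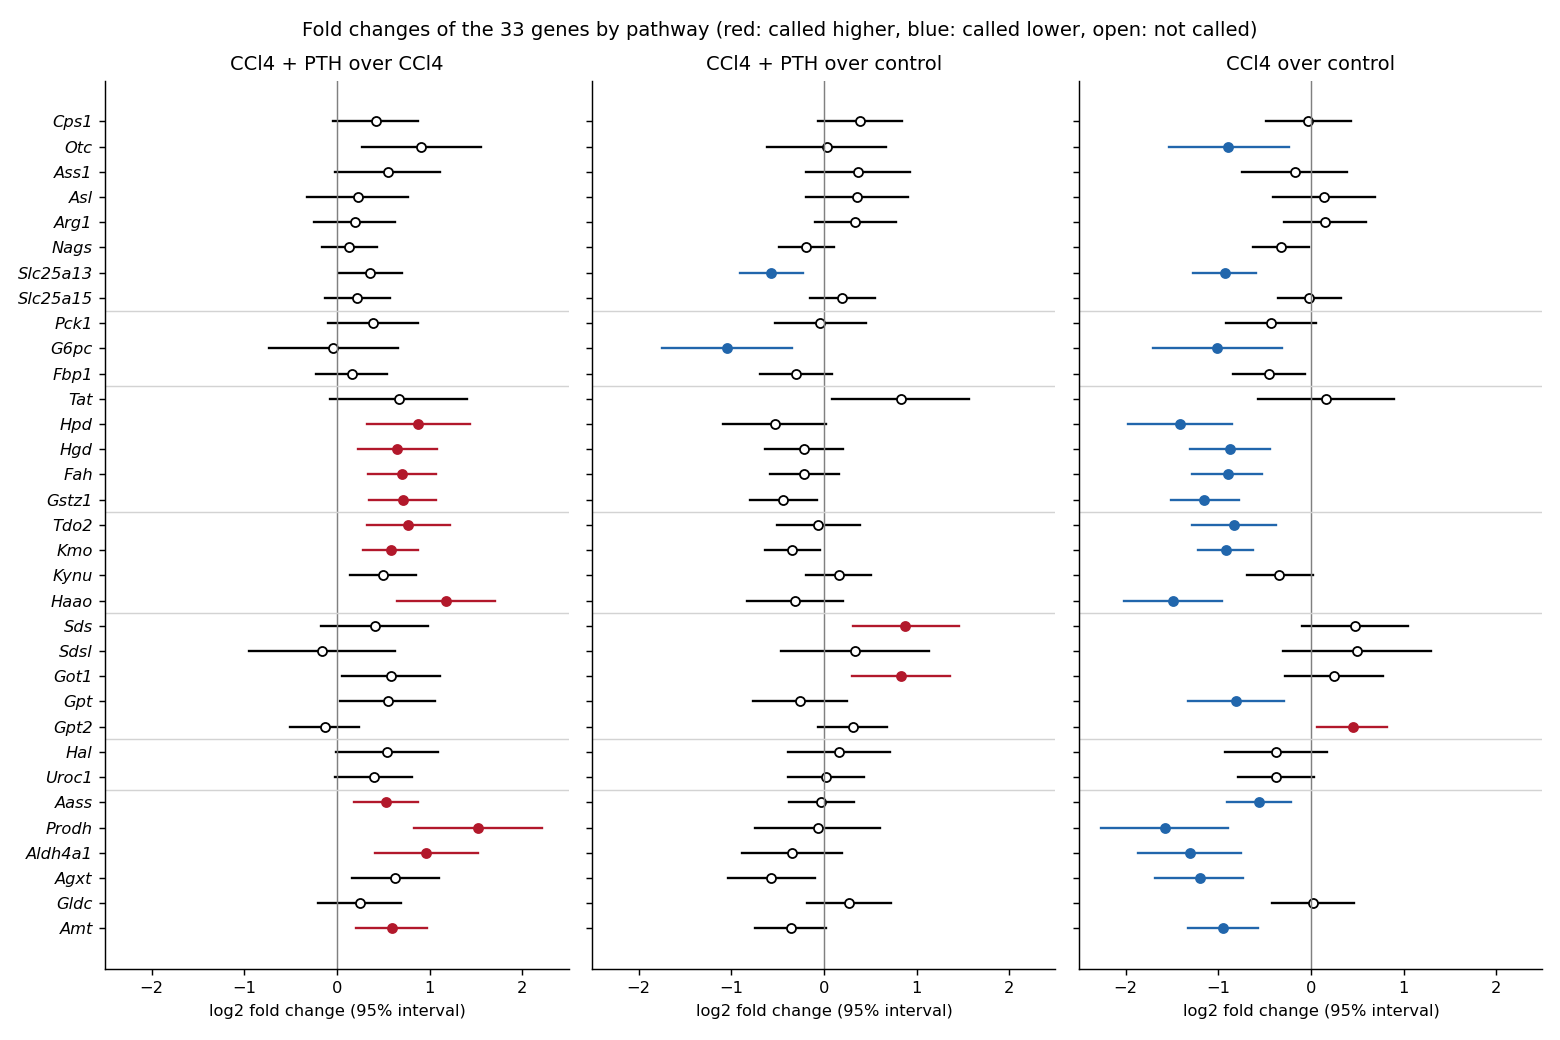
Log2 fold changes of the 33 genes (points) with 95% intervals (lines) in the 3 comparisons, grouped by pathway from the urea cycle at the top to lysine, proline and glycine at the bottom. Red points were called higher, blue points lower and open points neither: 11 genes are red in CCl4_PTH over CCl4, and 16 are blue and 1 is red in CCl4 over control.

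The stretch before the transcription start was read for the genes with an entry in the RefSeq promoter table (GRCm38.p6), which held 26 of the 33. The 250 bases before each start were searched on both strands for 5 motifs of liver promoters. These were TATAAA for the box that positions the polymerase, TGACGT for the core of the cyclic AMP response element through which glucagon acts, TTGCNNAA for C/EBP, CAAAGTCCA for HNF4 and TGTTTAC for FOXA. No matches overlapped in the windows printed. Printed 5′ to 3′ on the strand of the gene, with matches in capitals, are a urea cycle gene and a gluconeogenic gene (Otc and Pck1), a pair of successive tyrosine enzymes (Hpd and Hgd) and the lysine enzyme Aass.
Otc, chrX:10252055-10252304, plus strand: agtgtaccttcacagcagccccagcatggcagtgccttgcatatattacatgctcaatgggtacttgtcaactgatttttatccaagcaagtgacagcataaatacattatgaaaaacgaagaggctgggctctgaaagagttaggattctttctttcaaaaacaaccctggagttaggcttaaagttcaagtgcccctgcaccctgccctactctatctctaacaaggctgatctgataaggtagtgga
Pck1, chr2:173152823-173153072, plus strand: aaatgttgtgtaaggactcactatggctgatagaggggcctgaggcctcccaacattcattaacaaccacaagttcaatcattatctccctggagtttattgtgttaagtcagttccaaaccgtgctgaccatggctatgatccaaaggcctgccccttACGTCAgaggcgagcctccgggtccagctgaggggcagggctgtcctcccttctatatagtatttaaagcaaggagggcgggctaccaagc
Hpd, chr5:123182724-123182973, minus strand: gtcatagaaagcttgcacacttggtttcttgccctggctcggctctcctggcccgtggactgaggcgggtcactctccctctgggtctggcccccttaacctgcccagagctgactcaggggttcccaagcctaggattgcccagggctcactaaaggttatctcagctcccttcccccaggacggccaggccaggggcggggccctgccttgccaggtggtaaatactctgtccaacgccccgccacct
Hgd, chr16:37579903-37580152, plus strand: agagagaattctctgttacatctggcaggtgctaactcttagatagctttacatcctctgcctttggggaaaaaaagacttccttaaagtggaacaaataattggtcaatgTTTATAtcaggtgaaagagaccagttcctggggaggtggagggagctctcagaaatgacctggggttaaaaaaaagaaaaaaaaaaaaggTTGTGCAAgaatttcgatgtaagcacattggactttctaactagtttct
Aass, chr6:23132987-23133236, minus strand: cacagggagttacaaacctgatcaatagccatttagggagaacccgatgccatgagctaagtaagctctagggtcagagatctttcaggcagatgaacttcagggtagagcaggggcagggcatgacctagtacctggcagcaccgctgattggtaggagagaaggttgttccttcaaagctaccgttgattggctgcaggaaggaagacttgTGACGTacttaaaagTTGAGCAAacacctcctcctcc
The capitals mark a cyclic AMP response element core 91 bases before the start in Pck1 (read from the other strand) and 37 bases before it in Aass, which also has a C/EBP match 22 bases before its start. Both C/EBP matches shown, and TATAAA in Hgd, are read from the other strand. Hgd holds TATAAA at 139 bases and a C/EBP match at 49 bases before its start, and the windows of Otc and Hpd hold none of the 5. Over the 28 member windows (Slc25a15 and Gstz1 have 2 each), TATAAA was in 4, TGACGT in 2, TTGCNNAA in 3, and CAAAGTCCA and TGTTTAC in 0. Of all 32851 windows, 12.4% held TATAAA, 6.47% TGACGT, 9.56% TTGCNNAA, 0.384% CAAAGTCCA and 3.17% TGTTTAC. A match is a run of letters and no evidence of binding.

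Of the 8 urea cycle genes, 2 were called lower and 6 were not called in CCl4 against control. In CCl4_PTH against CCl4 none was called, and their log2 fold changes ran from 0.13 to 0.91. Cps1, which makes carbamoyl phosphate from ammonia and opens the cycle, had 2390, 3050 and 3430 CPM (lowest, median and highest of 6 libraries) in CCl4_PTH livers, 1580, 2010 and 3430 in CCl4 livers, and 1700, 2120 and 3550 in control livers. The 3 groups overlapped, with CCl4 8 and control 1 the highest of their groups, and the log2 fold changes were 0.42 ± 0.22 (SE, adjusted p = 0.224) for CCl4_PTH against CCl4 and -0.03 ± 0.22 (adjusted p = 0.93) for CCl4 against control. Scaled to hepatocyte markers, Cps1 was called higher in CCl4 than in control (0.45) and in CCl4_PTH than in control (0.67), and for CCl4_PTH also with library sizes only (0.82).

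Otc, ornithine transcarbamylase, joins carbamoyl phosphate to ornithine. It had 48, 194 and 231 CPM in CCl4_PTH livers, 50.3, 91.2 and 136 in CCl4 livers, and 146, 165 and 223 in control livers. Every CCl4 library lay below every control library, while in the CCl4_PTH group 5 libraries lay at 164 CPM or more and CCl4_PTH 1 at 48. Otc fell 1.85-fold in CCl4 against control (log2 fold change -0.89 ± 0.31 SE, adjusted p = 0.0236), a call lost without CCl4 4 (-0.75, adjusted p = 0.0639) and without control 1 and control 8 (-0.79, adjusted p = 0.0818). Over the 30 alternative settings this call was lost in 5, with adjusted p up to 0.325. For CCl4_PTH against CCl4 its log2 fold change by edgeR was 0.91 ± 0.31 (adjusted p = 0.0594). DESeq2 and voom called Otc higher in that comparison with all libraries. By edgeR it was 1.13 without CCl4_PTH 1 (adjusted p = 0.00265). Otc also passed without CCl4 1 (1.06, adjusted p = 0.0354) and without CCl4 8 (1.08, adjusted p = 0.034).

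Ass1 and Asl make and split argininosuccinate, and Arg1, arginase, releases urea. Ass1 had 745, 1300 and 1460 CPM in CCl4_PTH, 436, 692 and 1390 in CCl4 and 672, 847 and 1350 in control livers. Asl had 154, 186 and 449 CPM in CCl4_PTH, 128, 159 and 309 in CCl4 and 156, 172 and 218 in control livers. Arg1 had 357, 403 and 938 CPM in CCl4_PTH, 316, 440 and 555 in CCl4 and 342, 371 and 437 in control livers. All 3 overlapped across the 3 groups, and CCl4_PTH 1 held the lowest Ass1 and the highest Asl and Arg1 of its group. None was called by edgeR with TMM scaling, while voom called Ass1 higher in CCl4_PTH than in CCl4 (0.73, adjusted p = 0.0358) and than in control (0.57, adjusted p = 0.0348). With edgeR, log2 fold changes of CCl4 against control were -0.17 ± 0.27 (adjusted p = 0.624) for Ass1, 0.14 ± 0.26 (adjusted p = 0.697) for Asl and 0.15 ± 0.21 (adjusted p = 0.587) for Arg1. For CCl4_PTH against CCl4 they were 0.55 ± 0.27 (adjusted p = 0.198), 0.23 ± 0.26 (adjusted p = 0.639) and 0.19 ± 0.21 (adjusted p = 0.62) in the same order of genes. With library sizes only, Asl and Arg1 were called higher in CCl4 than in control (0.67 and 0.69), beside a median of 0.63 over all genes, and all 3 were called higher in CCl4_PTH than in control (0.79 to 0.81, beside 0.51 over all genes).

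Nags makes the acetylglutamate without which Cps1 is inactive, and its exons overlap an antisense gene, so its counts may include reads of that neighbour. Nags had 23.9, 28.3 and 34.4 CPM in CCl4_PTH, 17.2, 27.3 and 34.4 in CCl4 and 30.8, 33.1 and 35.3 in control livers. Its log2 fold change was -0.32 ± 0.14 (adjusted p = 0.0711) in CCl4 against control and 0.13 ± 0.14 (adjusted p = 0.605) in CCl4_PTH against CCl4. The first of these passed the threshold without CCl4 1 (adjusted p = 0.0245), CCl4 5 (0.0152), CCl4 8 (0.0327) or CCl4_PTH 6 (0.0497).

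The mitochondrial carriers that serve the cycle differed from each other. Slc25a13, citrin, exports the aspartate used by Ass1. It had 101, 123 and 142 CPM in CCl4_PTH, 57.6, 92.5 and 127 in CCl4 and 152, 187 and 195 in control livers. All 12 libraries of mice given CCl4, with or without PTH, lay below all 6 controls, and the gene fell 1.91-fold in CCl4 (log2 fold change -0.93 ± 0.16 SE, adjusted p = 0.000116) and 1.48-fold in CCl4_PTH (-0.57 ± 0.16, adjusted p = 0.013) against control. The second call was lost with library sizes only (-0.08) and when scaled to hepatocyte markers (-0.29). The log2 fold change of CCl4_PTH against CCl4 was 0.36 ± 0.16 by edgeR (adjusted p = 0.152), while voom called the gene higher. Slc25a15 imports ornithine, and had 123, 146 and 228 CPM in CCl4_PTH, 89.7, 140 and 165 in CCl4 and 118, 134 and 152 in control livers. Its groups overlapped and it was called in no comparison (-0.02 ± 0.17 in CCl4 against control, adjusted p = 0.94), except under other scalings. It was called higher in CCl4 than in control with library sizes only (0.53) and when scaled to hepatocyte markers (0.45), and likewise in CCl4_PTH than in control (0.67 and 0.42).

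**Figure D2:**
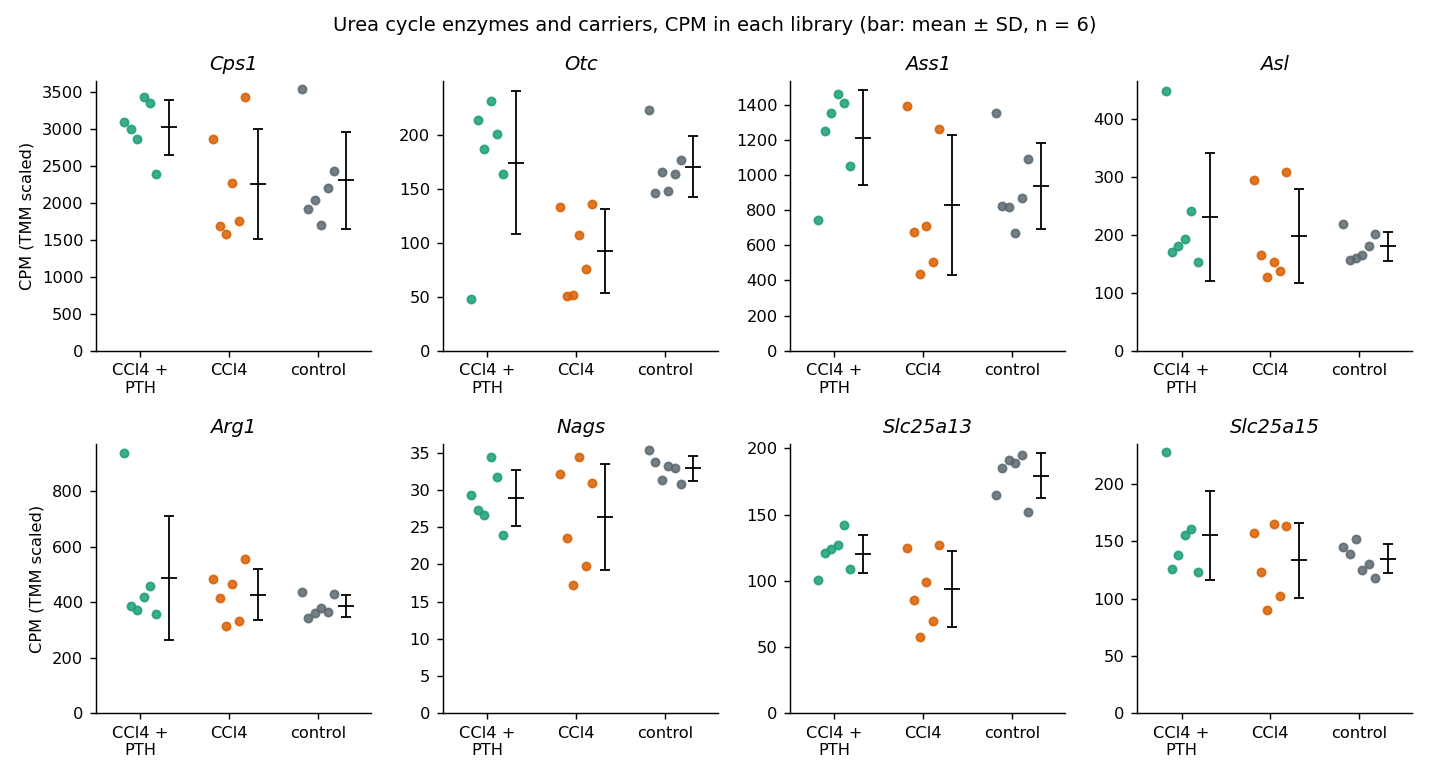
CPM of the 8 urea cycle genes in each of the 18 libraries (points), with the mean and SD of each group of 6 (bars); each vertical axis starts at 0. Slc25a13 lies at 152 CPM or more in all control libraries and at 142 or less in all others, and the single CCl4_PTH library at 48 CPM of Otc and 938 CPM of Arg1 is CCl4_PTH 1.

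Of the gluconeogenic enzymes, G6pc alone was called. G6pc encodes the catalytic subunit of glucose-6-phosphatase, the last step of glucose release. It had 40.6, 53.5 and 81.6 CPM in CCl4_PTH, 32.5, 57.6 and 89.2 in CCl4 and 48.4, 103 and 230 in control livers. Control 8 (230 CPM) and control 1 (155 CPM), the libraries with high lipogenic genes, were the highest, and the controls overlapped both other groups. G6pc fell 2.02-fold in CCl4 (log2 fold change -1.01 ± 0.34 SE, adjusted p = 0.0187) and 2.07-fold in CCl4_PTH (-1.05 ± 0.34, adjusted p = 0.0262) against control. The CCl4 call was lost without control 8 (-0.74, adjusted p = 0.0582), without CCl4 4 (-0.87, adjusted p = 0.0519) and without control 1 and control 8 together (-0.50, adjusted p = 0.195). The CCl4_PTH call was lost without control 8 (-0.76, adjusted p = 0.0776) or CCl4_PTH 1 (-0.98, adjusted p = 0.0552). It was also lost without control 1 and control 8 together (-0.52, adjusted p = 0.222). Pck1, the cytosolic enzyme that makes phosphoenolpyruvate, ran from 639 CPM (CCl4_PTH 8) to 2360 CPM (CCl4_PTH 1) within the CCl4_PTH group, against 849 to 1240 in CCl4 and 1130 to 1820 in control livers. Its log2 fold change was 0.39 ± 0.23 (adjusted p = 0.302) in CCl4_PTH against CCl4 and -0.43 ± 0.23 (adjusted p = 0.143) in CCl4 against control. Fbp1, fructose bisphosphatase, had log2 fold changes of 0.16 ± 0.19 (adjusted p = 0.649) and -0.45 ± 0.19 (adjusted p = 0.0514) in the same comparisons. The second passed in 15 of the 30 alternative settings, among them 10 of the 18 fits that left out a library. Over those 18 fits the lowest adjusted p was 0.0105, without CCl4 8.

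In the tyrosine pathway, the 4 enzymes after the first step were all called lower in CCl4 against control and all called higher in CCl4_PTH against CCl4. Tat, the aminotransferase that opens the pathway and a classical glucocorticoid target, was called in neither: its log2 fold change was 0.67 ± 0.35 (adjusted p = 0.236) in CCl4_PTH against CCl4 and 0.16 ± 0.35 (adjusted p = 0.734) in CCl4 against control, where scaling to hepatocyte markers gave a call (0.64, adjusted p = 0.0363). Tat stood at 1260 CPM in CCl4_PTH 1, against 276 to 392 in the other 5 libraries of that group, 154 to 510 in CCl4 and 232 to 406 in control livers.

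Hpd, hydroxyphenylpyruvate dioxygenase, is the next enzyme. It had 367, 630 and 779 CPM in CCl4_PTH, 156, 264 and 557 in CCl4 and 751, 829 and 1000 in control livers. The CCl4 livers lay below all controls; CCl4 1 (557 CPM) and CCl4 8 (504 CPM) overlapped the CCl4_PTH range, whose lowest library was CCl4_PTH 1. Hpd rose 1.84-fold in CCl4_PTH against CCl4 (log2 fold change 0.88 ± 0.27 SE, adjusted p = 0.0361) and fell 2.66-fold in CCl4 against control (-1.41 ± 0.27, adjusted p = 0.000271). The rise was lost in 8 of the 18 fits that left out a library, those without CCl4 2, 4, 5 or 7 and without CCl4_PTH 2, 3, 6 or 7, with adjusted p up to 0.0937.

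Gstz1, the isomerase before the last step, had 159, 209 and 259 CPM in CCl4_PTH, 77.4, 121 and 184 in CCl4 and 227, 290 and 315 in control livers. All CCl4 libraries were below all controls, and CCl4 1 and CCl4 8 reached into the CCl4_PTH range. It rose 1.63-fold in CCl4_PTH against CCl4 (0.71 ± 0.17 on the log2 scale, adjusted p = 0.0135) and fell 2.21-fold in CCl4 against control (-1.15 ± 0.17, adjusted p = 3.18e-05). Its exons overlap 2 antisense genes, Gm6566 and Pomt2, and its counts may include theirs. Fah, which ends the pathway, rose 1.62-fold (adjusted p = 0.0165) in CCl4_PTH against CCl4 and fell 1.87-fold (adjusted p = 0.000383) in CCl4 against control. Hgd, homogentisate dioxygenase, rose 1.57-fold (adjusted p = 0.042), a call lost in 12 of 18 fits that left out a library, the highest adjusted p being 0.102 without CCl4_PTH 7, and fell 1.83-fold (adjusted p = 0.00174) in the same comparisons. Against control, CCl4_PTH livers had Hpd at -0.53 ± 0.26, Gstz1 at -0.44 ± 0.17, Hgd at -0.22 ± 0.20 and Fah at -0.21 ± 0.18 on the log2 scale, none of them called (adjusted p from 0.067 to 0.461), though Gstz1 passed without control 1, CCl4 1, CCl4 4 or CCl4_PTH 7 (adjusted p from 0.038 to 0.044).

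Of the 4 tryptophan enzymes, 3 rose in CCl4_PTH against CCl4 and 3 fell in CCl4 against control by edgeR. Kynu had the same signs without a call by edgeR. Haao, 3-hydroxyanthranilate dioxygenase, whose product leads to NAD, had 73.7, 146 and 174 CPM in CCl4_PTH, 32.9, 58.4 and 87.6 in CCl4 and 128, 146 and 243 in control livers. CCl4 libraries lay below all controls, and 5 of 6 CCl4_PTH libraries, at 136 CPM or more, lay above all CCl4 libraries, the exception being CCl4_PTH 1. Haao rose 2.27-fold in CCl4_PTH against CCl4 (log2 fold change 1.18 ± 0.25 SE, adjusted p = 0.00681) and fell 2.81-fold in CCl4 against control (-1.49 ± 0.25, adjusted p = 9.62e-05). Control 1 and control 8 were its highest controls, at 226 and 243 CPM against 128 to 153 in the other 4. Tdo2, tryptophan dioxygenase, which opens the pathway, rose 1.7-fold (adjusted p = 0.0261) in CCl4_PTH against CCl4, a call lost without CCl4 2, CCl4 4, CCl4 7, CCl4_PTH 6 or CCl4_PTH 7 (adjusted p up to 0.0646), and fell 1.77-fold (adjusted p = 0.0038) in CCl4 against control. Kmo, kynurenine monooxygenase, rose 1.5-fold (adjusted p = 0.0139) and fell 1.89-fold (adjusted p = 4.08e-05) in the same comparisons. Kynu, kynureninase, had log2 fold changes of 0.50 ± 0.17 (adjusted p = 0.063) and -0.34 ± 0.17 (adjusted p = 0.113) by edgeR. The first passed without CCl4 1 (adjusted p = 0.0467), CCl4 8 (0.00633) or CCl4_PTH 8 (0.0407), and the second without CCl4 8 (0.00543). DESeq2 and voom called Kynu higher in CCl4_PTH than in CCl4 with all libraries.

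Prodh had the largest fold change of the 33 genes in CCl4 against control and in CCl4_PTH against CCl4. It encodes proline dehydrogenase, which takes the first step in mitochondria. It had 40.8, 79.7 and 104 CPM in CCl4_PTH, 13, 22.3 and 57.4 in CCl4 and 62.4, 77.2 and 110 in control livers. No CCl4 library reached the controls, and CCl4 1 alone (57.4 CPM) lay above a CCl4_PTH library, CCl4_PTH 1 (40.8 CPM). Prodh rose 2.86-fold in CCl4_PTH against CCl4 (log2 fold change 1.52 ± 0.33 SE, adjusted p = 0.0077) and fell 2.99-fold in CCl4 against control (-1.58 ± 0.33, adjusted p = 0.000715). Against control, the CCl4_PTH difference was -0.06 ± 0.32 (95% interval -0.74 to 0.61, adjusted p = 0.907).

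Aldh4a1 oxidises the product of Prodh to glutamate, and its exons overlap a gene on the same strand, Gm21969. It had 81.8, 233 and 276 CPM in CCl4_PTH, 62.7, 101 and 184 in CCl4 and 233, 269 and 332 in control livers. The other 5 CCl4_PTH libraries, at 207 CPM or more, lay above all CCl4 libraries, and CCl4_PTH 1 lay within the CCl4 range. Aldh4a1 rose 1.95-fold in CCl4_PTH against CCl4 (0.96 ± 0.26 on the log2 scale, adjusted p = 0.0233) and fell 2.48-fold in CCl4 against control (-1.31 ± 0.27, adjusted p = 0.000506). The rise was lost without CCl4 2, CCl4 4, CCl4 7, CCl4_PTH 6 or CCl4_PTH 7, with adjusted p up to 0.0617.

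Agxt, the peroxisomal aminotransferase that removes glyoxylate, had 44.6, 68.5 and 96.2 CPM in CCl4_PTH, 24.3, 44.6 and 65.5 in CCl4 and 93.2, 95.9 and 127 in control livers. CCl4 libraries lay below all controls and overlapped CCl4_PTH libraries. It fell 2.3-fold in CCl4 against control (-1.20 ± 0.23 on the log2 scale, adjusted p = 0.000257). Its log2 fold change in CCl4_PTH against CCl4 was 0.63 ± 0.22 by edgeR (adjusted p = 0.0728). This passed without CCl4_PTH 1 (0.75, adjusted p = 0.0261), without CCl4 1 (0.79, adjusted p = 0.026) and without CCl4 8 (0.77, adjusted p = 0.0328). DESeq2 and voom called Agxt higher in that comparison with all libraries. Against control, CCl4_PTH livers had -0.57 ± 0.22 (adjusted p = 0.0644), which passed without CCl4 1, CCl4 2, CCl4 4 or CCl4_PTH 7 (adjusted p from 0.0332 to 0.0486).

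Aass, the enzyme that opens lysine breakdown, rose 1.44-fold in CCl4_PTH against CCl4 (adjusted p = 0.0434) and fell 1.47-fold in CCl4 against control (adjusted p = 0.00957). The rise was lost in 9 of 18 fits that left out a library, the highest adjusted p being 0.11 without CCl4 4, and the fall was lost with library sizes only (0.01) and when scaled to hepatocyte markers (-0.08). Amt and Gldc belong to the glycine cleavage system. Amt rose 1.51-fold in CCl4_PTH against CCl4 (adjusted p = 0.0389), a call lost in 7 of the 18 fits and highest at adjusted p = 0.0944 without CCl4 7, and fell 1.93-fold in CCl4 against control (adjusted p = 0.000298). Gldc was called in neither comparison, at 0.25 ± 0.21 (adjusted p = 0.505) and 0.02 ± 0.21 (adjusted p = 0.94).

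**Figure D3:**
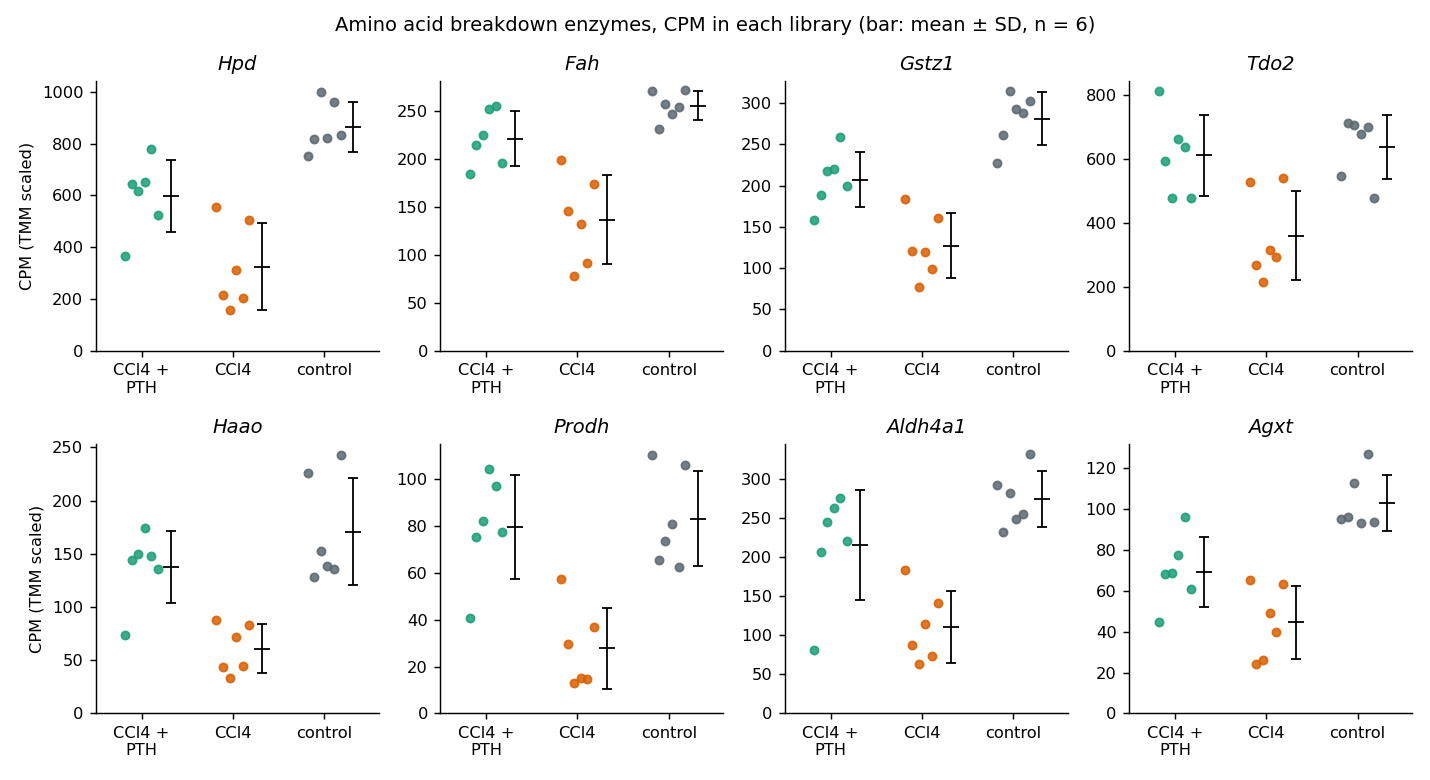
CPM of 8 amino acid breakdown enzymes in each of the 18 libraries (points), with the mean and SD of each group of 6 (bars); each vertical axis starts at 0. Prodh has medians of 79.7 CPM in CCl4_PTH, 22.3 in CCl4 and 77.2 in control livers, and CCl4_PTH 1 is the lowest library of its group in 7 of the 8 panels, the exception being Tdo2.

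Of the 5 dehydratases and aminotransferases, 1 rose and 1 fell in CCl4 against control, near the shares of all genes (26.3% and 21.2%). None passed in CCl4_PTH against CCl4 by edgeR, where 7.1% of all genes were called higher and 4.95% lower. Gpt, the cytosolic alanine aminotransferase, fell 1.75-fold in CCl4 against control (-0.81 ± 0.25 on the log2 scale, adjusted p = 0.0114). In CCl4_PTH against CCl4 Gpt had 0.55 ± 0.25 by edgeR (adjusted p = 0.156), which passed without CCl4 1 (0.80, adjusted p = 0.0204). With all libraries voom called Gpt higher in that comparison. Its mitochondrial counterpart Gpt2 was called 1.36-fold higher in CCl4 than in control (0.45 ± 0.18, adjusted p = 0.046), but the call was lost in 15 of the 18 fits that left out a library, and CCl4 1 (498 CPM) and CCl4 8 (378 CPM) were its highest CCl4 libraries; without CCl4 1 its value was lowest, at 0.24. Sds, serine dehydratase, and Got1, the cytosolic aspartate aminotransferase, were called higher in CCl4_PTH than in control, 1.85-fold (adjusted p = 0.023) and 1.78-fold (adjusted p = 0.0202). The Sds call was lost without control 4 (adjusted p = 0.0511), control 8 (0.0532) or CCl4_PTH 7 (0.054), and the Got1 call without control 8 (0.05) or CCl4_PTH 1 (0.0596); exons of Sds overlap 2 antisense genes. In CCl4_PTH against CCl4 they had 0.41 ± 0.27 (adjusted p = 0.366) and 0.58 ± 0.25 (adjusted p = 0.142), and both passed without CCl4 1 (0.78 with adjusted p = 0.0154, and 0.77 with adjusted p = 0.0391).

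Sdsl, the serine dehydratase-like gene and the lowest of the 33, turned on a single library. It stood at 12.4 CPM in CCl4_PTH 1, against 1.84 to 3.08 in the other 5 libraries of that group, 3.71 to 5.36 in CCl4 and 2.49 to 4.09 in control livers. With all libraries its log2 fold change in CCl4_PTH against CCl4 was -0.16 ± 0.38 (adjusted p = 0.834). Without CCl4_PTH 1 it was called lower than in CCl4 (-0.93, adjusted p = 0.000866), and lower than in control (-0.47, adjusted p = 0.0415, against 0.34 and not called with all libraries).

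Histidine breakdown, by Hal and then Uroc1, had lower medians in CCl4 than in either other group, with no call. Hal had a median of 290 CPM in CCl4_PTH, 178 in CCl4 and 244 in control livers, with log2 fold changes of 0.54 ± 0.26 (adjusted p = 0.193) in CCl4_PTH against CCl4 and -0.38 ± 0.26 (adjusted p = 0.248) in CCl4 against control. Uroc1 had medians of 288, 204 and 280 CPM in the same groups, and 0.40 ± 0.20 (adjusted p = 0.201) and -0.38 ± 0.20 (adjusted p = 0.121), the second of which passed without CCl4 1 (adjusted p = 0.0267) or CCl4 8 (0.0344).

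**Figure D4:**
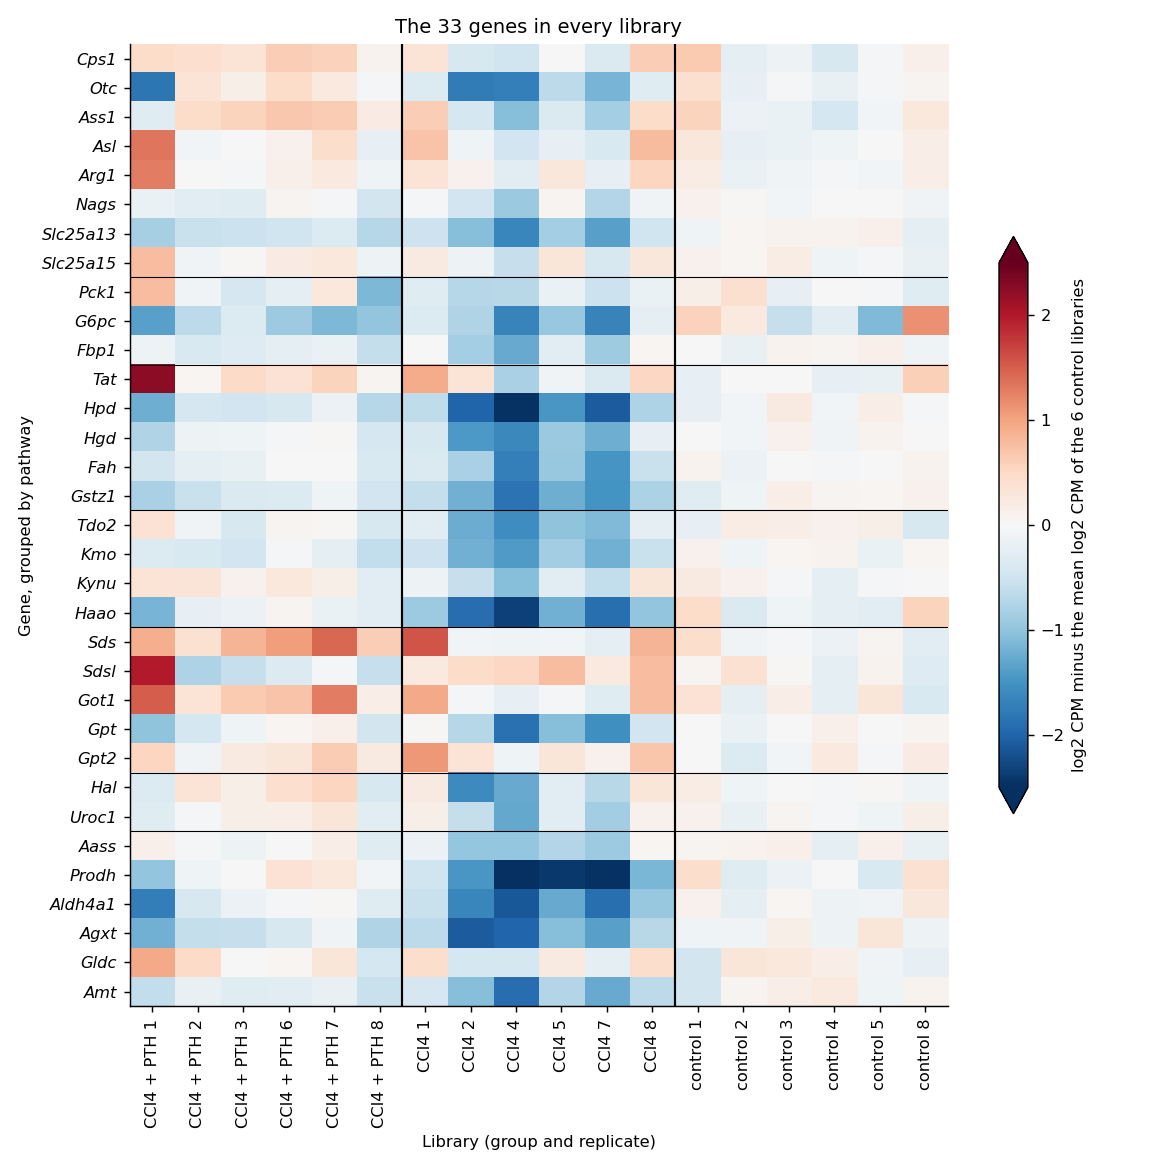
Log2 CPM of each of the 33 genes (rows) in each library (columns) minus the mean log2 CPM of the 6 controls; red is above and blue below that mean, black lines part the pathways and the groups. CCl4 1 and CCl4 8, which hold the highest value of their group in 17 and 13 genes, are paler than CCl4 2, 4, 5 and 7 in many blue rows and redder in Sds, Got1, Gpt2 and Asl, and CCl4_PTH 1 departs in both directions from the other CCl4_PTH libraries.

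The CCl4 livers varied among themselves in a shared way. CCl4 1 was the highest of the 6 in 17 genes and CCl4 8 in 13, while CCl4 4 was the lowest in 25. Divided by the hepatocyte marker sum of the same library, CCl4 4 was the lowest in 0 genes and CCl4 5 in 25, and CCl4 1 was the highest in 26. The CCl4_PTH group had CCl4_PTH 7 as its highest library in 14 genes, and CCl4_PTH 1 was its lowest in 15 and its highest in 11 (lowest in 25 over the hepatocyte marker sum). CCl4_PTH 1 had a marker sum of 86600 CPM, against 45900 to 60700 in the rest of its group, and 33700 CPM of acute phase genes. Hpx, 1 of the markers, averaged 3130 ± 3010 CPM (SD) in CCl4_PTH and 1080 ± 59.4 in control livers. Whether the acute phase genes and this sum rose together was not tested. The scaling to hepatocyte markers uses the same sum. The part of cell composition in these differences was not tested.

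Ratios between 2 of the 33 genes within a library do not depend on the scaling of libraries. The following 6 were chosen after the values were seen and are given with no test. Prodh over Cps1 was 0.0132, 0.0288 and 0.0324 (lowest, median and highest) in CCl4_PTH, 0.00669, 0.00957 and 0.0201 in CCl4 and 0.0283, 0.0352 and 0.0476 in control livers. Otc over Cps1, successive steps of the cycle, was 0.0155, 0.0663 and 0.0713 in CCl4_PTH, 0.0297, 0.0415 and 0.0469 in CCl4 and 0.0628, 0.0755 and 0.0874 in control livers. The CCl4 and control ranges do not meet in either ratio, and CCl4_PTH 1 is the lowest library of its group in both. Gpt over Gpt2 was 0.163, 0.35 and 0.395 in CCl4_PTH, 0.139, 0.196 and 0.227 in CCl4 and 0.426, 0.475 and 0.528 in control livers, so all 12 libraries of mice given CCl4 lay below all controls. Slc25a13 over Slc25a15 had medians of 0.884 in CCl4_PTH, 0.689 in CCl4 and 1.31 in control livers, Haao over Cps1 0.0494, 0.0258 and 0.0709, and Hpd over Tat 1.88, 1.05 and 3.4.

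**Figure D5:**
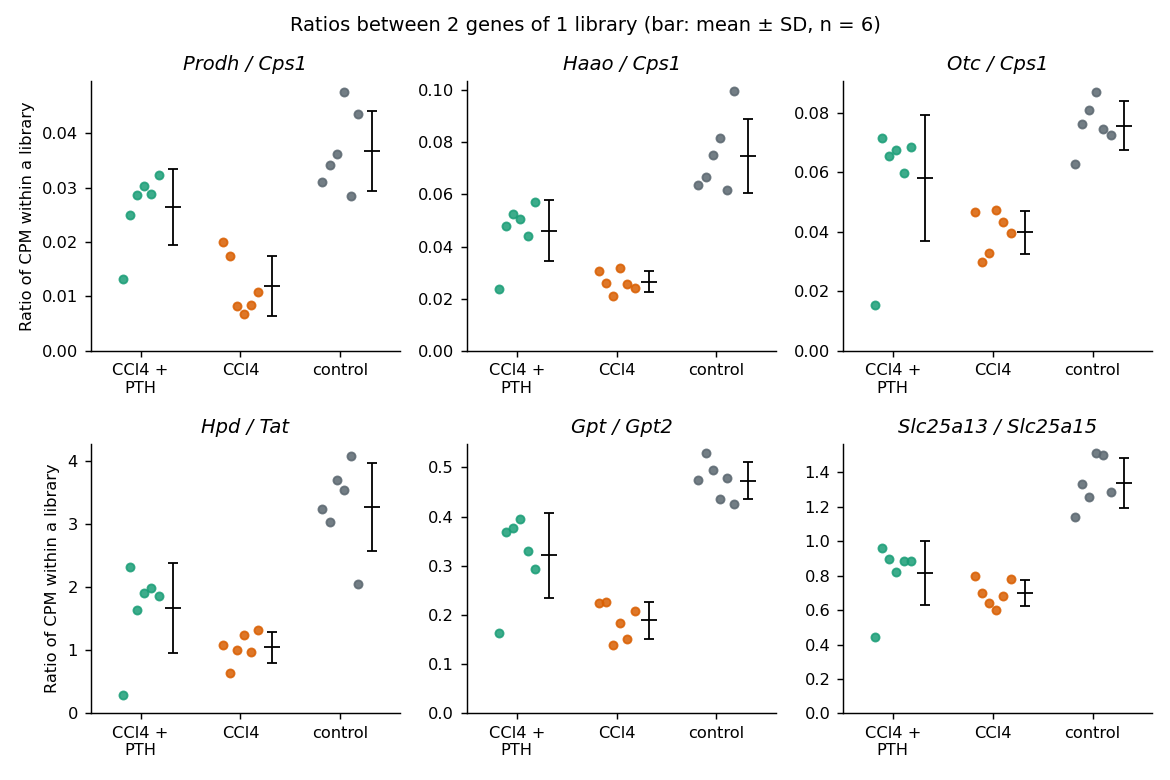
Ratios of the CPM of 2 genes in the same library (points) for 6 pairs, with the mean and SD of each group of 6 (bars); each vertical axis starts at 0. In each of the 6 panels all CCl4 libraries lie below all control libraries, and CCl4_PTH 1 is the lowest CCl4_PTH library.

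The wider pathways around the 33 genes were described from lists of other genes, whose counts stand beside the shares over all genes: 26.3% higher and 21.2% lower in CCl4 against control, and 7.1% higher and 4.95% lower in CCl4_PTH against CCl4. Of 24 genes of leucine, isoleucine and valine breakdown, 23 fell and 0 rose in CCl4 against control, and 17 rose and 0 fell in CCl4_PTH against CCl4. Mut, methylmalonyl-CoA mutase, averaged 95.2 ± 11.7 CPM in CCl4_PTH and 52.9 ± 14.2 in CCl4 livers (SD, n = 6 each; adjusted p = 0.00192). The list's median log2 fold changes were 0.60 in CCl4_PTH against CCl4 and -0.85 in CCl4 against control, beside -0.03 and 0.05 over all genes.

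Of 16 other genes of aromatic amino acid and histidine breakdown and transport, 13 fell and 2 rose in CCl4 against control, and 9 rose and 1 fell in CCl4_PTH against CCl4. The transporter Slc16a10, which carries aromatic amino acids, averaged 53.8 ± 4.34 CPM in CCl4_PTH, 31.0 ± 5.19 in CCl4 and 58.5 ± 5.3 in control livers, and had the smallest p of the list among rises in CCl4_PTH against CCl4 (adjusted p = 0.000205) and among falls in CCl4 against control (adjusted p = 1.25e-06). Slc7a8, a neutral amino acid exchanger, moved the other way, at 7.27 ± 1.18 CPM in CCl4_PTH, 16.4 ± 8.11 in CCl4 and 3.45 ± 0.931 in control livers (adjusted p = 0.00726 and 2.45e-06).

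Of 26 other genes of glycine, serine, lysine, proline and glyoxylate metabolism, 17 fell and 5 rose in CCl4 against control, and 10 rose and 2 fell in CCl4_PTH against CCl4. Those that rose included Aldh18a1, Phgdh, Psat1 and Psph, which build proline or serine rather than break them down, and the 2 that fell with PTH were Aldh18a1 and Psat1. Aldh18a1, which makes the proline precursor, averaged 3.53 ± 1.69 CPM in CCl4_PTH, 7.23 ± 1.91 in CCl4 and 0.988 ± 0.266 in control livers, and was called lower in CCl4_PTH than in CCl4 (adjusted p = 0.0144) and higher in CCl4 than in control (adjusted p = 2.88e-07). Grhpr, glyoxylate reductase, had the smallest p among the falls in CCl4 (57.9 ± 10 CPM in CCl4 and 107 ± 13.7 in control livers, adjusted p = 1.6e-05). Agxt2, a mitochondrial aminotransferase, led the rises with PTH (86.5 ± 19.1 CPM in CCl4_PTH and 44.7 ± 14.6 in CCl4 livers, adjusted p = 0.00444).

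Of 19 other genes of ammonia, glutamine and ornithine handling, 12 fell and 3 rose in CCl4 against control, and 7 rose and 0 fell in CCl4_PTH against CCl4. The genes with the smallest p in each comparison, Oat and Slc1a2, are also markers of hepatocytes next to the central vein. Oat, ornithine aminotransferase, averaged 137 ± 47.5 CPM in CCl4_PTH, 19.4 ± 5.36 in CCl4 and 502 ± 168 in control livers (adjusted p = 2.48e-09 for CCl4 against control). Slc1a2, a glutamate transporter, averaged 91.5 ± 32.3 CPM in CCl4_PTH and 0.874 ± 0.772 in CCl4 livers (adjusted p = 5.77e-07), against 242 ± 28.6 in control livers.

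Of 24 other genes of gluconeogenesis and glucose release, 13 fell and 2 rose in CCl4 against control, and 5 rose and 2 fell in CCl4_PTH against CCl4. Pck2, the mitochondrial isoenzyme of Pck1, averaged 5.18 ± 0.809 CPM in CCl4_PTH, 7.78 ± 1.55 in CCl4 and 2.21 ± 0.329 in control livers. It was called lower in CCl4_PTH than in CCl4 (adjusted p = 0.014) and higher in CCl4 than in control (adjusted p = 6.16e-08). Gys2, liver glycogen synthase, fell 3.39-fold in CCl4 against control (adjusted p = 1.19e-05), and Slc25a1, the citrate carrier, rose 1.76-fold in CCl4_PTH against CCl4 (adjusted p = 0.00444).

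Receptors and transcription regulators that set these enzymes included 15 of 24 that fell and 1 that rose in CCl4 against control, and 8 that rose and 0 that fell in CCl4_PTH against CCl4. Gcgr, the glucagon receptor, averaged 52.1 ± 12.1 CPM in CCl4 and 112 ± 7.88 in control livers (adjusted p = 4.35e-06), and Creb1, the factor that binds the cyclic AMP response element, averaged 20.3 ± 2.77 and 16.0 ± 2.3 in the same groups (adjusted p = 0.0173). Nr3c1, the glucocorticoid receptor, averaged 81.0 ± 7.07 CPM in CCl4_PTH and 62.2 ± 6.01 in CCl4 livers (adjusted p = 0.00787). Of 10 genes that glucocorticoids induce in liver, 4 rose and 1 fell in CCl4 against control (beside 26.3% and 21.2% of all genes), with Sgk1 (2.37-fold higher, adjusted p = 7.05e-06) and Klf9 (1.99-fold lower, adjusted p = 5.01e-05) having the smallest p, and 0 were called by edgeR in CCl4_PTH against CCl4 (2 at an unadjusted p under 0.05).

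Feeding state and time of day also set these enzymes, and the labels give neither. Of 13 lipogenic genes that feeding induces, 8 fell and 0 rose in CCl4 against control (Mlxipl 4.3-fold lower, adjusted p = 2.8e-05), and 4 rose and 0 fell in CCl4_PTH against CCl4 (Srebf1 3.89-fold higher, adjusted p = 0.00713). Of 13 genes that fasting induces, 7 fell and 2 rose in CCl4 against control (Igfbp1 23.7-fold higher, adjusted p = 0.000347), and 0 rose and 1 fell in CCl4_PTH against CCl4 (Plin2 2.01-fold lower, adjusted p = 0.0354). Of 17 clock and clock output genes, 11 fell and 2 rose in CCl4 against control (Bhlhe41 4.49-fold lower, adjusted p = 1.51e-06; Arntl 4.08-fold higher, adjusted p = 0.000445), and 6 rose and 0 fell in CCl4_PTH against CCl4 (Nr1d2 1.75-fold higher, adjusted p = 0.00427). The part of feeding and time of day in the results on the 33 genes was not tested.

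Of 12 markers of hepatocytes near the central vein, where CCl4 is activated, 11 fell and 0 rose in CCl4 against control, and 9 rose and 0 fell in CCl4_PTH against CCl4, with Oat and Slc1a2 having the smallest p. Their summed level was 1610 to 4280 CPM in CCl4_PTH, 419 to 1320 in CCl4 and 5610 to 9330 in control livers, with no overlap between the groups. Of 12 markers of hepatocytes near the portal vein, 3 fell and 4 rose in CCl4 against control, near the shares of all genes called (21.2% and 26.3%; Pigr 2.25-fold lower, adjusted p = 0.000156; Cdh1 2.79-fold higher, adjusted p = 0.000378), and 1 rose in CCl4_PTH against CCl4 (Pigr 1.65-fold, adjusted p = 0.0286). Sox9 is in both this list and the cholangiocyte list. Of the 14 general hepatocyte markers, 7 fell and 1 rose in CCl4 against control (Apoa2 2.83-fold lower, adjusted p = 6.29e-06; Hpx 2.22-fold higher, adjusted p = 0.0125), and 2 rose in CCl4_PTH against CCl4 (Apoa2 1.66-fold, adjusted p = 0.019). The part of the zones in the results on the 33 genes was not tested.

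Markers of other cells were read from the same fit. In CCl4_PTH against CCl4, 7.1% of all genes were called higher and 4.95% lower. Of 17 macrophage markers, 5 fell (Cd68 2.11-fold, adjusted p = 0.00415) and 1 rose (Clec4f of resident Kupffer cells, 1.33-fold, adjusted p = 0.0345). The summed level of the 17 was 501 to 953 CPM in CCl4_PTH, 677 to 1740 in CCl4 and 212 to 326 in control livers. The 15 stellate cell and myofibroblast markers summed to 578 to 1160 CPM in CCl4_PTH, 602 to 1040 in CCl4 and 275 to 340 in control livers. By edgeR, 0 stellate, 0 cholangiocyte, 0 lymphocyte, 0 neutrophil and 0 acute phase genes were called in CCl4_PTH against CCl4 (1, 0, 4, 0 and 5 genes in the same order at an unadjusted p under 0.05), and 1 of 12 endothelial markers rose (Clec4g, 1.33-fold, adjusted p = 0.0126). In CCl4 against control, the called genes with the smallest p of these lists were Gpnmb (macrophage, 141-fold higher, adjusted p = 3.86e-12), Lum (stellate, 11.9-fold, adjusted p = 7.75e-09), Spp1 (cholangiocyte, 8.89-fold, adjusted p = 4.06e-06), Cd79b (lymphocyte, 3.42-fold, adjusted p = 0.000194), Csf3r (neutrophil, 6.28-fold, adjusted p = 2.26e-06) and Saa3 (acute phase, 13-fold, adjusted p = 5.02e-05). Spp1 is also in the macrophage list, so its rise cannot be assigned to cholangiocytes. Beside 26.3% of all genes called higher and 21.2% lower, acute phase genes were called higher for 5 of 13 and lower for 1, Crp (1.32-fold, adjusted p = 0.028), and 5 of 12 endothelial markers rose (Vwf 2.69-fold, adjusted p = 6.16e-07) and 2 fell (Kdr 1.55-fold, adjusted p = 0.00395). The part of these cells in the results on the 33 genes was not tested.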

How the data were processed

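Liver RNA of 18 mice, 6 per group, was measured. Per the labels' protocols, ribosomal RNA was removed and NEBNext libraries were sequenced in pairs of 150-base reads. StringTie 2.1.5, HISAT2 2.2.1, Bowtie2 2.5.1, cutadapt 4.2, FastQC 0.11.9 and the GRCm38 build appear in the submitters' processing notes, with no role or order. Counter, annotation, filters and strand use are not given in the sources used here. Estimated counts per gene were deposited by the authors as whole numbers not scaled to depth, 67229863 to 118877267 per library. Rounding changed 0 values, and 54723 of 54752 identifiers matched GENCODE M21. All 45 within-group library pairs differed by more than sampling noise, the chi-square per gene being at least 58.2.

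edgeR 4.0.16 (R 4.3.3; filterByExpr, minimum count 10; TMM; robust quasi-likelihood F test; 3 groups, no block; Benjamini-Hochberg over 21840 genes, threshold 0.05) gave all comparisons. Genes past that threshold are the ones called. The standard error (SE) was derived from the log2 fold change and F. The 95% intervals of all genes use 19.2 degrees of freedom, the median over genes of the fit's residual plus prior degrees of freedom. P-values set the difference between groups against the spread between the mice sampled. DESeq2 1.42.0, limma 3.58.1 (voom), other scalings, no filter, a replicate block, 2-group fits and leaving out libraries were alternatives.

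The 33 genes and the 20 lists (4 of 315 symbols not found) were chosen with earlier results of these data known. The naming rule took all 33, with values per group for urea cycle genes and those called with a log2 fold change of at least 1 in either direction, and from each list the called gene with the smallest p per direction; other list genes, and the ratios, were named after their values were seen. Some genes that the rule names are not reported here. Promoter sequences are from RefSeq (GRCm38.p6), and exons from GENCODE M21 on GRCm38.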

Additional observations from a re-analysis of the deposited data

Results flagged for a closer look

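In 8 of 99 combinations of gene and group, 1 library stood apart from the other 5 by Dixon's criterion, which chance gives in about 1 of 20 groups. Of these, 7 were in CCl4_PTH 1, the library with the high acute phase sum: Otc (48 CPM, others 164 to 231), Asl (449, others 154 to 241), Arg1 (938, others 357 to 458), Slc25a15 (228, others 123 to 161), Tat (1260, others 276 to 392), Sdsl (12.4, others 1.84 to 3.08) and Aldh4a1 (81.8, others 207 to 276). The remaining one was Tat in control 8 (406 CPM, others 232 to 270). The cause was not tested.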

How the results depend on the processing

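Members are the 33 genes. In CCl4 against control, members called lower numbered 14 to 20 without single libraries and 15 with the replicate block, but 8 with library sizes only and 9 when scaled to hepatocyte markers (a setting chosen after seeing the data, as was leaving out control 1, control 8 and CCl4_PTH 1 together). Members called higher were 8, 10, 0 with the block, ribosomal loci left out, upper quartile, no filter or control 1 and 8 left out, and 0 to 1 without single libraries. Genes higher were 11275 and 9598 (5735 with TMM), and lower 1061 and 1045 (4627 with TMM), under those 2 scalings. In CCl4_PTH against CCl4, members called higher were 6 and 2 under those scalings, 17 with voom, 4 with 2 groups fitted, 0 with the replicate block (adjusted p of Prodh 0.134 and Haao 0.138) and 5 to 17 without single libraries; members called lower were 1 with voom and without the 3 libraries (1724 genes lower and 2412 higher there), and 0 to 1 without single libraries. Genes higher were 476 and 257 under the scalings, 42 with the block and 934 to 2286 without single libraries; genes lower were 621 with library sizes, 1798 with DESeq2, 1969 with voom, 709 with 2 groups, 42 with the block and 575 to 1568. In CCl4_PTH against control, members called higher were 13 and 10 under the scalings, 4 with voom, 0 with the block, 1 without control 1 and 8, 0 without the 3 libraries and 0 to 2 without single libraries; members called lower were 0, 0, 4 with DESeq2, 5 with voom, 1 with no filter, 8 with 2 groups, 0 with the block, 1 without control 1 and 8, and 1 to 4. Genes higher were 9559 with library sizes and 2501 with the block; genes lower were 353, 333 when scaled to hepatocyte markers, and 842 with the block. Same-numbered libraries did not deviate together (13 pairs, r -0.21 to 0.08; 0 of 18 libraries best with their own number), so the replicate block uses numbers only. Of the 33 genes, 15 were below 0 in CCl4 against control with library sizes only and 17 with hepatocyte scaling, against 25 with TMM. Directions with a call under TMM or the other setting reversed for Cps1 (0.45, hepatocyte scaling), Slc25a15 (0.53 library sizes, 0.45 hepatocyte scaling) and Aass (0.01, library sizes) in CCl4 against control, and for Aass (0.45, library sizes) and Sdsl (-0.47 without CCl4_PTH 1, -0.54 without the 3 libraries) in CCl4_PTH against control. The cause was not tested.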
